A study of Homo sapiens with 16 samples.

Results

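Antisense and LINC long noncoding RNAs were followed in U-87MG cells, a human glioblastoma line, treated with indole-3-pyruvate and an antagonist of the aryl hydrocarbon receptor (AHR). Members were the genes whose array annotation gives 1 symbol that ends in -AS and a digit, or that starts with LINC and a digit. These were 231 of 14040 genes, of which 156 were antisense genes and 75 were LINC genes, each with 1 row of values. Treatments were 0.1% DMSO as carrier, 25 µM indole-3-pyruvate (I3P, a keto acid made from tryptophan), 1 µM of the antagonist SR1, or both compounds (I3P+SR1). Every treatment had 4 arrays, labelled as biological replicates 1 to 4. All groups are the same line, grown in DMEM with no engineered change named in the labels, so they model 1 tumour, and no source used here gives the treatment time. Array titles carry the letters SLI for replicates 1 and 2 and SMI for replicates 3 and 4, which the labels do not explain.

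An antisense RNA is transcribed from the strand opposite a named gene, here called its sense gene, and may overlap it or start beside it. Some such RNAs act on transcription, splicing or stability of the sense transcript, and many have no known function. LINC is the provisional name for long intergenic RNAs that lie between protein-coding genes, and several LINC loci were later found to encode small proteins. AHR is a transcription factor that enters the nucleus when a ligand binds it, pairs with ARNT and binds DNA at the core motif GCGTG. CYP1B1, a cytochrome P450, and TIPARP, an ADP-ribosyltransferase that restrains the receptor, are classical AHR targets.

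ZNF295-AS1 was the member that passed the test of all genes, and its promoter is shown with that of its sense gene ZBTB21 (formerly ZNF295). LINC00668, the other member whose SR1 arrays all lay below the DMSO arrays, and the AHR target TIPARP are given for comparison. Each window, from RefSeq on GRCh38.p14, holds 250 bases before and 50 bases after the gene's start on its own strand. Capitals mark GCGTG on either strand, where CACGC is its reverse.
ZNF295-AS1, chr21:42008944-42009243, plus strand: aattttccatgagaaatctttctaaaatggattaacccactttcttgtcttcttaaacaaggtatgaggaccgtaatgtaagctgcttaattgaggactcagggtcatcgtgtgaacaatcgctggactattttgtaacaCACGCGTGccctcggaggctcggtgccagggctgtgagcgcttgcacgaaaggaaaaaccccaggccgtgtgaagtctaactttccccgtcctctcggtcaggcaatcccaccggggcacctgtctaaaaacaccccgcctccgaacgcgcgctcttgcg
ZBTB21, chr21:42010311-42010610, minus strand: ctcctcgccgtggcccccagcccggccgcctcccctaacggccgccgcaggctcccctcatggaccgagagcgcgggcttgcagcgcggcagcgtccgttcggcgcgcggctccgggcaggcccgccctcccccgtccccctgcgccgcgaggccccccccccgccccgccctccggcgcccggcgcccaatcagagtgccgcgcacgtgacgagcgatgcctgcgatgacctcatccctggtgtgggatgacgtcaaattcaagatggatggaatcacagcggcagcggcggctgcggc
LINC00668, chr18:6929820-6930119, minus strand: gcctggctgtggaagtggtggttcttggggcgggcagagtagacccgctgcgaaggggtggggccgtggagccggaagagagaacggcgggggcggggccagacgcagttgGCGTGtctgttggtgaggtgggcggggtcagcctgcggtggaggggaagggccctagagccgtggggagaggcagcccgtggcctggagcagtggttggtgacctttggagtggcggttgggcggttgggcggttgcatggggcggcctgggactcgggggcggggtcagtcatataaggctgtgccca
TIPARP, chr3:156674340-156674639, plus strand: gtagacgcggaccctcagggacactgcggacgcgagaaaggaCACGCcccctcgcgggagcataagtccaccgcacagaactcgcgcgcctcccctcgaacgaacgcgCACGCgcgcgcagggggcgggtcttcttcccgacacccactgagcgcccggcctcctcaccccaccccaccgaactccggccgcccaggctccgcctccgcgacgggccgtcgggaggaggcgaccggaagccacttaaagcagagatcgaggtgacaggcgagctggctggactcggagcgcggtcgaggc
The ZNF295-AS1 window held 2 matches, 1 on each strand, which overlap to form CACGCGTG and begin at -110 and -107 from the start. CACGCGTG is its own reverse complement, so it holds the motif once on each strand, in partly shared bases. The 2 matches are thus not separate places in the window. The ZBTB21 window held 0, the LINC00668 window 1 at -139 and the TIPARP window 2 at -208 and -142. GCGTG was present in 36.3% of 27305 promoter windows in the table, in 50.4% of 125 antisense windows, in 32.2% of 59 LINC windows and in 58.3% of 103 windows of sense genes. Windows with 2 or more matches were 12.7% of all, 24.0% of antisense, 8.47% of LINC and 27.2% of sense gene windows. The longer form TNGCGTG, found in the LINC00668 window and absent from the other 3, was in 5.51% of all windows and 11.4% of 184 member windows. Median GC content was 58.3% over all windows, 63.7% in antisense windows and 55.3% in LINC windows, and its part in the motif shares was not tested. A match describes the letters of a window and shows no binding.

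The values are log2 expression after RMA, the robust multi-array average, with medians of 8.26 to 8.30 per array. Members were dim on these arrays. Their median mean value was 7.52 against 8.34 over all genes, 104 of 231 (45.0%) lay in the dimmest 20% of all genes and 5 above the 80th percentile. This brightness depends on the probes as well as on the RNA, so it ranks array signal and not abundance. The 5 bright members were LINC00657 (now NORAD, an RNA that binds PUMILIO proteins), HOXB-AS3, VIM-AS1, LINC00656 and MRGPRG-AS1. The 119 measured sense genes had a median of 8.89. Median spread within groups was an SD of 0.279 in members and 0.233 in all genes. The cells' identity was checked on marker genes: VIM, FN1, TGFBI, CHI3L1 and CD44 were bright (percentiles 86.2 to 99.9), PTPRC lay at percentile 9.96, and the astrocyte and progenitor markers GFAP and NES were at percentiles 37.2 and 22.8. RefSeq now classes 17 members as protein-coding genes, 12 of them LINC genes.

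Array I3P replicate 1 stood apart from the others. It was the highest or lowest of the 16 arrays in 108 of 231 members (46.8%) and in 41.2% of all genes, and the next such array, I3P replicate 4, in 37 members. For comparisons that use I3P, values without this array are given for the members named with the smallest p. In limma's test with Benjamini-Hochberg adjustment over all 14040 genes, a member passed at an adjusted p under 0.05. In bulk RNA a change in the share of cells and a change in RNA per cell cannot be told apart.

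ZNF295-AS1 fell with SR1 and was higher again when I3P was added to SR1. Its log2 level on replicates 1 to 4 was 6.85, 6.90, 6.79 and 6.54 with DMSO, and 5.11, 5.45, 5.85 and 5.97 with SR1. With I3P it was 7.64, 7.57, 7.60 and 7.68, and with I3P and SR1 together 6.70, 6.58, 7.09 and 7.15. Every SR1 array lay below all other arrays, and every I3P array lay above all others. SR1 lowered it by 1.17 on the log2 scale, 2.26-fold (SE 0.17, limma adjusted p = 0.0073). I3P+SR1 lay above SR1 by 1.29, 2.44-fold (SE 0.17, limma adjusted p = 0.003). Both comparisons use the same SR1 arrays. Neither call was kept in a fit of only the 2 groups compared (limma adjusted p = 0.075 and 0.083). Nor was it kept with replicate 1, 2 or 3 left out of all groups (limma adjusted p = 0.16, 0.30 and 0.13 for SR1 against DMSO, and 0.061, 0.088 and 0.12 for I3P+SR1 against SR1). The change held its direction on every replicate number, from -1.74 on replicate 1 to -0.57 on replicate 4 for SR1 against DMSO, and from 1.13 to 1.59 for I3P+SR1 against SR1.

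For I3P against DMSO the difference was 0.86 (SE 0.17, 95% interval 0.49 to 1.22), from 0.67 to 1.15 on single replicate numbers. Its unadjusted limma p of 0.00015 was the smallest of all 14040 genes in that comparison, but the adjusted p was 1.0, so it did not pass. Without I3P replicate 1 the difference was 0.85 (95% interval 0.44 to 1.26). I3P+SR1 against I3P gave -0.74 (SE 0.17, 95% interval -1.11 to -0.38, limma adjusted p = 1.0), and the groups did not overlap. It was also -0.74 without I3P replicate 1. I3P+SR1 and DMSO, the neighbours in the middle of the order, did not differ beyond their spread, at 0.11 (95% interval -0.26 to 0.48). On replicates 1 and 2 I3P+SR1 lay below DMSO, by 0.15 and 0.33, and on replicates 3 and 4 above it, by 0.31 and 0.61. The response to I3P with SR1 present exceeded that without it by 0.43 (SE 0.25, 95% interval -0.09 to 0.95), which did not pass, and by 0.43 without I3P replicate 1. The row is among the dimmest of the array, at percentile 1.31 of all genes.

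**Figure D1:**
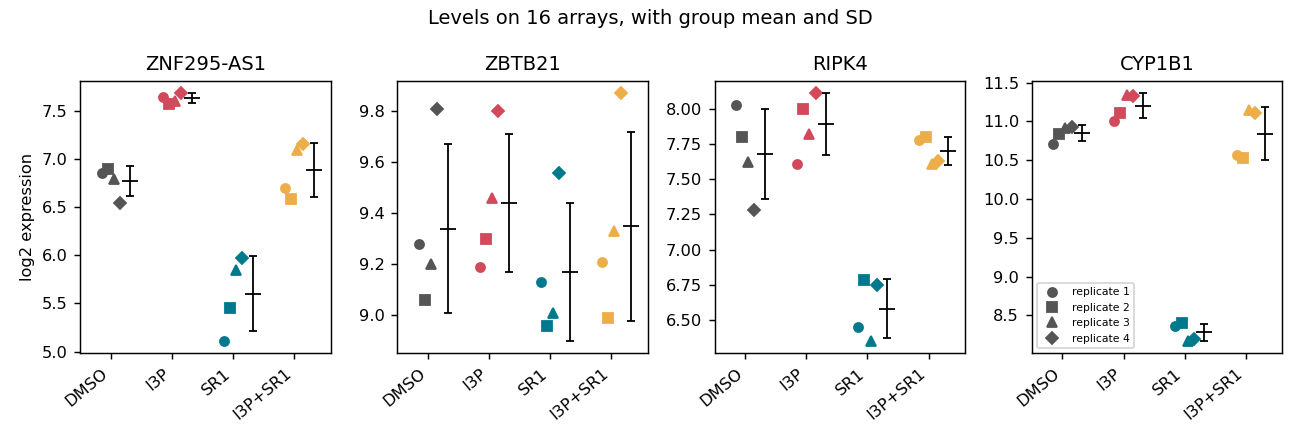
Log2 expression on 16 arrays in the 4 groups for ZNF295-AS1, its sense gene ZBTB21, RIPK4 and the AHR target CYP1B1. RIPK4 lies 4 measured genes away from ZNF295-AS1 in RefSeq order. Symbols mark the replicate number, and bars the group mean and SD (n = 4), with a separate vertical scale in each panel. ZNF295-AS1 has group means of 6.77, 7.63, 5.60 and 6.88 for DMSO, I3P, SR1 and I3P+SR1, while ZBTB21 stays between 8.96 and 9.87 on all arrays.

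The sense gene ZBTB21, a BTB and zinc-finger repressor of transcription, is read from the opposite strand. Its group means were 9.34 with DMSO, 9.44 with I3P, 9.17 with SR1 and 9.35 with both (SD 0.27 to 0.37, n = 4). It differed by -0.17 with SR1 and by 0.19 from SR1 to I3P+SR1 (limma adjusted p = 1.0 for both), and the groups overlapped. On replicate 4 it read 9.81, 9.80, 9.56 and 9.87 with DMSO, I3P, SR1 and both, above the other 12 arrays. The change of ZNF295-AS1 minus that of ZBTB21 was -1.0 for SR1 against DMSO (two-sided exact permutation test over 4 and 4 arrays, p = 0.057). For I3P+SR1 against SR1 it was 1.1 (exact permutation p = 0.029, the smallest that 70 arrangements allow). With the arrays paired by replicate number, the difference ranged from -1.59 to -0.32 over the 4 pairs in the first comparison and from 0.87 to 1.51 in the second. The two-sided exact test of these pairs gave p = 0.125 in both, the smallest that 4 pairs allow, so neither passed. The pair was tested because ZNF295-AS1 had passed on the same arrays. Its size is thus no independent estimate, and a small p was likely beforehand, so these tests add no separate evidence.

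Among the 4 nearest measured genes on each side in RefSeq order, RIPK4 also passed. RIPK4 is a kinase of epidermal differentiation. Its values were 8.03, 7.80, 7.62 and 7.28 with DMSO and 6.45, 6.78, 6.35 and 6.75 with SR1. The differences were -1.10 with SR1 (SE 0.16, limma adjusted p = 0.0057) and 1.12 from SR1 to I3P+SR1 (adjusted p = 0.004). With I3P alone RIPK4 differed from DMSO by 0.21 (SE 0.16, 95% interval -0.13 to 0.54), where ZNF295-AS1 differed by 0.86. PRDM15, C2CD2 and ZBTB21 lie between RIPK4 and ZNF295-AS1. C2CD2 was at -0.37 with SR1 and PRDM15 at -0.14, and neither passed. On the other side UMODL1, ABCG1, TFF3 and TFF2 were at 0.05, -0.08, 0.15 and -0.40, and none passed. As a scale for these values, CYP1B1 had group means of 10.85 with DMSO, 11.20 with I3P, 8.28 with SR1 and 10.84 with both. TIPARP changed by -1.34 with SR1 and by 1.41 from SR1 to I3P+SR1.

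With a passing gene among the 4 nearest on either side, 4 further members were found. They were LINC00479 (near RIPK4), LINC00674 (near SLC16A6, a monocarboxylate carrier), NALCN-AS1 (near ZIC2, a zinc-finger factor) and ST3GAL6-AS1 (near CLDND1 and CPOX). They were picked after the values had been seen, as were the neighbours of ZNF295-AS1. Their own differences with SR1 were -0.05, 0.03, 0.32 and -0.12, and none passed. The share of all genes with a passing gene this near was not computed, so the count of such members has no background.

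SR1 against DMSO left every member but ZNF295-AS1 without a call. Of 231 members 0 rose and 1 fell, against 0.164% of all genes called in either direction. At an unadjusted limma p under 0.05 there were 7 members (3.03%) against 2.93% of all genes, and the 2 groups did not overlap in 7 members (3.03%) against 2.45%. These shares are close to the background. Of the members 130 had a positive difference, with a median of 0.02 (0.00 over all genes).

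LINC00668 was the member with the next lowest SR1 level relative to DMSO. It read 6.85, 7.28, 7.58 and 6.94 with DMSO and 6.45, 6.37, 6.28 and 6.26 with SR1. With I3P+SR1 it read 6.93, 6.94, 7.18 and 7.07, and with I3P 5.08, 6.73, 7.56 and 6.99. All SR1 arrays lay below all DMSO and all I3P+SR1 arrays, while the low value of I3P replicate 1 widened the spread of the fit. The difference of -0.82 (SE 0.35) had a 95% interval of -1.57 to -0.08 and did not pass (limma adjusted p = 1.0). With the replicate number as a block it did not pass either (adjusted p = 0.64), and with that block and without I3P replicate 1 it passed (adjusted p = 0.032, SE 0.15), a setting chosen after the values had been seen.

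LOXL1-AS1, antisense to the elastin cross-linking enzyme LOXL1, lay in the other direction. It read 8.0, 7.97, 8.24 and 8.10 with DMSO, 8.34, 8.46, 8.46 and 8.42 with SR1, and 7.92, 8.07, 7.63 and 8.09 with both. The SR1 arrays lay above both other groups. SR1 against DMSO gave 0.34 (SE 0.12, limma adjusted p = 1.0), and I3P+SR1 against SR1 gave -0.49 (SE 0.12, adjusted p = 0.34). LOXL1 itself differed by 0.18 and -0.24 in the same comparisons, with overlapping values, and did not pass. The largest rise of a member with SR1 was that of GSN-AS1, at 0.61 (SE 0.29, 95% interval -0.01 to 1.23). Its SR1 and DMSO arrays did not overlap, and it did not pass.

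LINC00618 differed by 0.46 with SR1 (SE 0.14) and by 0.33 with I3P (SE 0.14), from a DMSO mean of 6.85, and the latter was 0.29 without I3P replicate 1. LINC00086 read 7.52, 6.91, 7.08 and 7.27 with DMSO and 7.05, 7.14, 6.28 and 6.10 with SR1. Its lower SR1 values stood on replicates 3 and 4, and the difference of -0.55 was -0.12 within SLI and -0.99 within SMI. MRGPRG-AS1 was at 0.39 and WAC-AS1, antisense to a regulator of histone ubiquitination, at -0.29. None of these 4 passed.

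**Figure D2:**
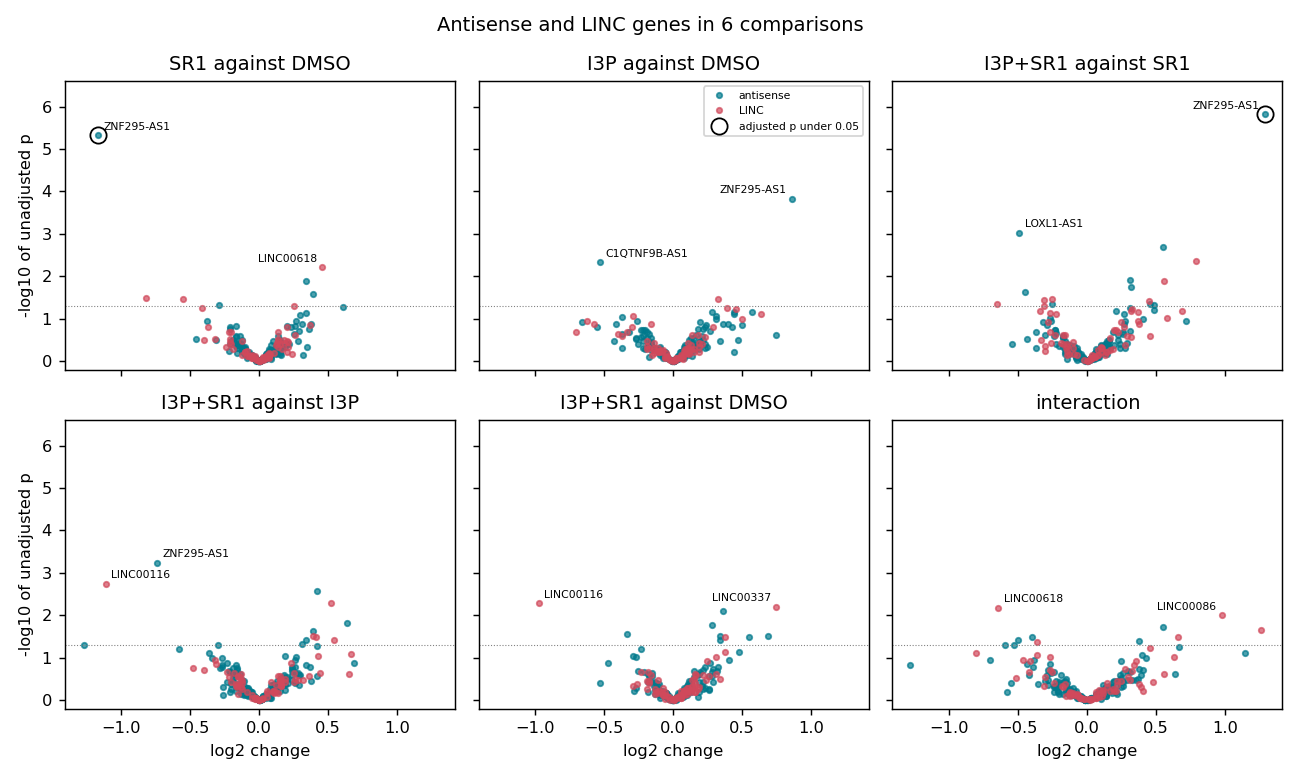
Log2 change of each of the 231 members (horizontal) against the -log10 of its unadjusted limma p (vertical) in the 6 comparisons, with antisense and LINC genes in separate colours, a dotted line at an unadjusted p of 0.05 and a ring at an adjusted p under 0.05. ZNF295-AS1 is ringed in SR1 against DMSO (-1.17) and in I3P+SR1 against SR1 (1.29), and has the smallest p of the members in I3P against DMSO (0.86) and I3P+SR1 against I3P (-0.74).

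For I3P against DMSO 0 members passed, and so did 0.0% of all genes. The unadjusted p was under 0.05 in 3 members (1.3%) against 2.81% of all genes, and in 3 (1.3%) without I3P replicate 1, against 1.93% of all genes. The groups did not overlap in 2 members, ZNF295-AS1 and LINC00618, against 1.57% of all genes. C1QTNF9B-AS1 (now PCOTH) was at -0.53 (SE 0.16), with DMSO arrays from 7.76 to 8.19 and I3P arrays from 7.03 to 7.77. SLC7A11-AS1, antisense to the cystine transporter SLC7A11, was at 0.57, and its I3P arrays read 9.93, 8.16, 8.22 and 8.12 against DMSO arrays from 7.83 to 8.22. Its difference rests on replicate 1 and was 0.13 without it. LINC00870 and LINC00207 were at 0.39 and 0.46, and neither passed. Without I3P replicate 1, C1QTNF9B-AS1 was at -0.39, LINC00870 at 0.41 and LINC00207 at 0.30.

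Adding I3P to SR1 gave 1 member that rose, ZNF295-AS1, and 0 that fell, against 0.114% of all genes called. An unadjusted p under 0.05 was found in 15 members (6.49%) against 3.7% of all genes, and the groups did not overlap in 13 members (5.63%) against 2.91%. Of these 13 members 8 were higher and 5 lower with I3P+SR1. Both shares exceed those of all genes, and the excess was not tested. LINC genes made up 6 of the 15, 8.0% of the 75, and antisense genes 9, 5.77% of the 156. After ZNF295-AS1 and LOXL1-AS1, LARGE-AS1, antisense to a glycosyltransferase of dystroglycan, had the smallest p (0.55, SE 0.15, limma adjusted p = 0.54). It read 7.14, 7.41, 7.01 and 7.23 with SR1 and 7.59, 7.63, 8.08 and 7.69 with both. Its DMSO arrays lay between 7.33 and 7.47, below the I3P+SR1 arrays too. LINC00086 was at 0.79 (adjusted p = 0.69), GNAS-AS1, from the imprinted GNAS locus, at 0.31, LINC00587 at 0.56 and HOXB-AS4 at 0.32, and none passed.

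I3P+SR1 against I3P had 0 calls among members and 0.0% among all genes. Before adjustment, 12 members (5.19%) had a p under 0.05 against 3.32%, and the groups did not overlap in 7 members (3.03%) against 1.35%. Without I3P replicate 1 the count at p under 0.05 was 18 (7.79%), against 3.0% of all genes. These shares exceed those of all genes, and the excess was not tested. LINC00116, now MTLN, which encodes the mitochondrial microprotein mitoregulin, was at -1.11 (SE 0.30, limma adjusted p = 1.0) and at -0.77 without that array. It read 9.28, 7.64, 7.5 and 8.61 with I3P, 8.0, 8.37, 7.93 and 8.14 with DMSO, 7.41, 7.72, 8.10 and 7.93 with SR1, and 7.44, 6.92, 7.10 and 7.11 with both. The I3P+SR1 arrays lay below all DMSO and all I3P arrays but overlapped SR1. FZD10-AS1, LINC00085 (now SPACA6, a sperm membrane protein gene), HOXB-AS4, MCM3AP-AS1 and LINC00337 were at 0.64, 0.52, 0.42, 0.39 and 0.54, and none passed. They were at 0.54, 0.56, 0.48, 0.46 and 0.53 without I3P replicate 1.

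I3P+SR1 against DMSO likewise had 0 calls among members and 0.0% among all genes. Without adjustment 10 members (4.33%) had a p under 0.05 against 1.38%, and the groups did not overlap in 5 members (2.16%) against 1.22%. LINC00116 was at -0.97 (SE 0.30), LINC00337 (now ICMT-DT) at 0.75 (SE 0.24) and HOXB-AS4 at 0.36 (SE 0.12), each with a limma adjusted p of 1.0. FAM83H-AS1, SETD5-AS1 and WAC-AS1 were at 0.28, 0.34 and -0.33. For the interaction, the effect of I3P with SR1 present minus its effect without SR1, 0 members passed, against 0.00712% of all genes. Unadjusted, 10 members (4.33%) had a p under 0.05 against 2.02%, and 19 (8.23%) without I3P replicate 1, against 2.52%. The excess over all genes was not tested, here or for I3P+SR1 against DMSO. LINC00618 was at -0.64, LINC00086 at 0.98, LARGE-AS1 at 0.55, LINC00668 at 1.26 and LINC00587 at 0.66, and none passed. Without I3P replicate 1 they were at -0.60, 1.19, 0.47, 0.76 and 0.66, so LINC00668 moved most.

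The precision of these values limits what could be seen. The 95% interval of the change lay within 1 log2 unit of 0 for 217 of 231 members for SR1 against DMSO, for 211 for I3P against DMSO and for 212 for I3P+SR1 against SR1. For I3P+SR1 against I3P and against DMSO it did so for 209 and 214 members, and for the interaction for 179. In that order these were 93.9%, 91.3%, 91.8%, 90.5%, 92.6% and 77.5% of members. Over all genes the shares were 96.1%, 95.4%, 95.7%, 95.6%, 96.9% and 86.4%. The intervals come from the main fit, which has no replicate block. With that block the SE for SR1 against DMSO went from 0.88 to 0.27 in NALCN-AS1 and from 0.68 to 0.14 in CFLAR-AS1. In CSNK1G2-AS1 it went from 0.43 to 0.45. The precision thus depends in part on the fit.

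**Figure D3:**
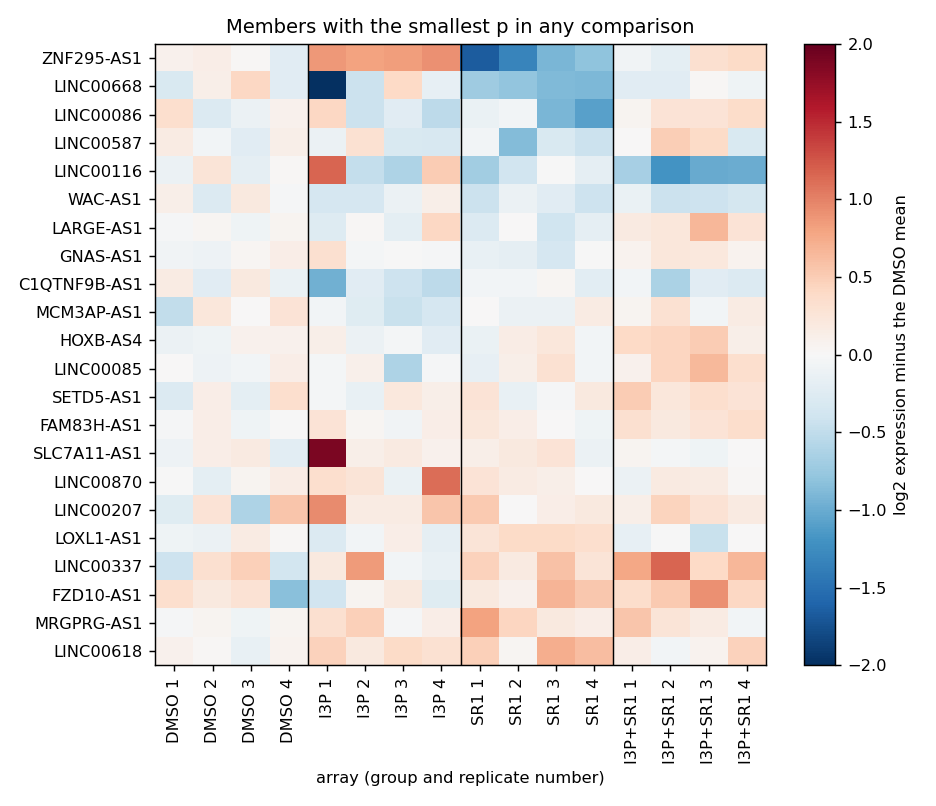
Log2 expression minus the gene's DMSO mean on each of 16 arrays (columns, by group and replicate number) for the 22 members with the smallest p in any comparison (rows, ordered by the difference of SR1 from DMSO), with colours ending at 2 and -2. ZNF295-AS1 in the top row is high on the 4 I3P arrays and low on the 4 SR1 arrays, and I3P replicate 1 stands apart in LINC00668, LINC00116 and SLC7A11-AS1.

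A measured sense gene was found for 121 of 156 antisense members. By RefSeq's gene starts, 16 of these pairs start divergently within 1000 bases, 20 have overlapping opposite starts within 1000 bases, 50 start further apart on opposite strands, 1 lies on the same strand and 34 could not be placed. None of the sense genes passed in any comparison. In none of the 6 comparisons were both genes of a pair at an unadjusted limma p under 0.05. The 2 genes differed in the same direction in 67 pairs with SR1, in 61 with I3P, in 63 for I3P+SR1 against SR1, in 64 for I3P+SR1 against I3P and in 57 for I3P+SR1 against DMSO. Across pairs, which share arrays and are not replicates, Pearson's r between the changes was 0.09 with SR1, 0.01 with I3P and 0.21 for I3P+SR1 against SR1. It was 0.09 for I3P+SR1 against I3P and -0.15 for I3P+SR1 against DMSO. In the same order of comparisons, 10, 6, 8, 9 and 4 of the 16 divergent pairs differed in the same direction. For the interaction, 71 of the 121 pairs and 10 of the 16 divergent pairs did so, with r at 0.15 over all pairs. Spearman's rho over all pairs was 0.18, 0.04, 0.22, 0.15 and -0.22 in the order above, and 0.19 for the interaction. The pair values that use I3P include array I3P replicate 1. The median size of change with SR1 was 0.098 for antisense and 0.099 for sense genes.

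Pairs that differed most in SR1 against DMSO were described as the rule asked. FZD10-AS1 and FZD10, a Frizzled receptor for Wnt ligands, were at 0.38 and -0.82. FZD10 read 6.74, 7.09, 6.64 and 6.71 with DMSO and 6.62, 6.39, 5.37 and 5.54 with SR1, and it lay 1.10 higher with I3P+SR1 than with SR1 (limma adjusted p = 0.92). FZD10-AS1 read 7.69, 7.54, 7.64 and 6.51 with DMSO and 7.54, 7.44, 8.03 and 7.89 with SR1. Without DMSO replicate 4, at 6.51, its difference was 0.10 and not 0.38. Neither gene passed. TP73-AS1 and TP73, a member of the p53 family, were at -0.38 and 0.35, and SLC7A11-AS1 and SLC7A11 at 0.12 and -0.59, and none of these passed.

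**Figure D4:**
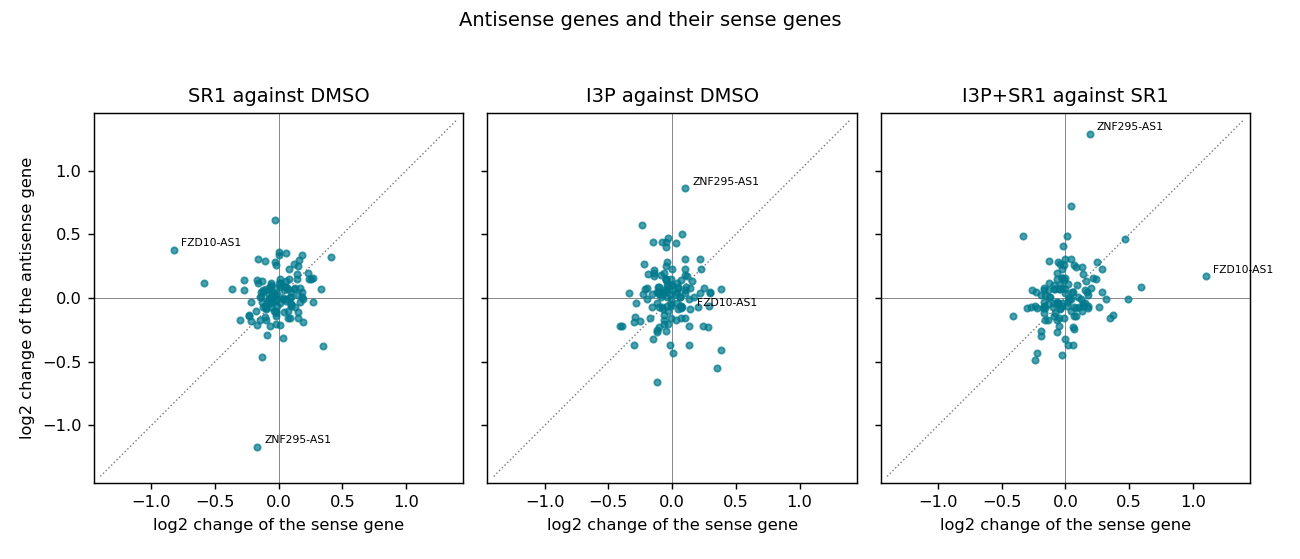
Log2 change of each antisense gene (vertical) against that of its sense gene (horizontal) for 121 pairs in 3 comparisons, with the dotted line at equal change. ZNF295-AS1 lies at -1.17, 0.86 and 1.29 while ZBTB21 lies at -0.17, 0.10 and 0.19, and most other pairs gather around 0.

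Lists of related members gave 0 calls beyond ZNF295-AS1, which is in none of them. Of 50 genes of the AHR pathway or reported to respond to it, 1 had measured antisense members: HIF1A, the oxygen-regulated transcription factor that shares the partner ARNT. HIF1A-AS1 and HIF1A-AS2 differed by -0.16 and 0.07 with SR1 and by 0.06 and 0.18 with I3P, with overlapping groups. Of 16 antisense genes of the HOX clusters, which encode body-axis factors, 5 were measured. HOXB-AS4 read 7.42, 7.45, 7.61 and 7.62 with DMSO and 7.93, 7.96, 8.04 and 7.64 with I3P+SR1, which did not overlap. HOXB-AS3, HOXC-AS5, HOXD-AS1 (now HAGLR) and HOXD-AS2 differed by no more than 0.16 in size in any of the 5 comparisons between groups with all arrays. Without I3P replicate 1, HOXB-AS3 differed by 0.24 for I3P+SR1 against I3P.

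Of 66 antisense and LINC genes studied in tumours 19 were measured, with a median difference of 0.02 with SR1 and -0.07 with I3P (0.00 and -0.02 over all genes). At an unadjusted limma p under 0.05 they had 1 member with SR1, 0 with I3P and 2 for I3P+SR1 against SR1, which were LOXL1-AS1 and TP73-AS1. These are 5.26%, 0.0% and 10.5% of the 19, against 2.93%, 2.81% and 3.7% of all genes. LINC00461 (now MIR9-2HG, which hosts a copy of the neural microRNA miR-9) had group means of 7.86, 7.97, 7.64 and 7.97 for DMSO, I3P, SR1 and I3P+SR1, and LINC00346 means of 7.59, 7.49, 7.65 and 7.36. Values of AGAP2-AS1 differed by at most 0.19 between groups in size. Of 7 members antisense to developmental transcription factors 0 passed, and ZEB2-AS1 and NR2F1-AS1 were at 0.14 and 0.19 with SR1. The 17 members now classed as protein coding had 0 calls, with medians of 0.00 with SR1 and 0.06 with I3P. Among 17 other long noncoding RNAs outside the 2 name classes, such as MALAT1, NEAT1 and H19, 0 passed in any comparison. All of these lists were drawn up with earlier results of these data known.

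In a few members the difference between replicate numbers was larger than any difference between treatments among the members. NALCN-AS1, antisense to a sodium leak channel gene, read between 7.24 and 8.0 on the 4 replicate 4 arrays, 1 from each group, and between 4.08 and 6.23 on the other 12. Its mean on replicate 4 exceeded that on the others by 2.57. CFLAR-AS1, antisense to the apoptosis inhibitor CFLAR, read 7.28 to 7.80 on replicate 4 and 4.94 to 5.82 on the others. LINC00520 read 8.65 to 9.12 against 6.38 to 7.96, and DLGAP1-AS2, antisense to a synaptic scaffold gene, 8.30 to 8.59 against 5.93 to 7.27. The 4 groups shared this difference, so it moved with the replicate number.

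The replicate 4 arrays of all groups lay above the other 12 arrays in 15 members and below them in 3, together 7.79% against 8.72% of all genes, so such a split is no more frequent among members. For replicates 1, 2 and 3 there were 1, 1 and 0 such members (0.433%, 0.433% and 0.0%), against 0.741%, 1.4% and 0.897% of all genes. In these 3 pairs the sense gene shifted less: CFLAR differed by 0.21 between replicate 4 and the rest, NALCN by -0.46 and DLGAP1 by -0.09, where CFLAR-AS1, NALCN-AS1 and DLGAP1-AS2 differed by 2.14, 2.57 and 1.56. NR2F1-AS1 and NR2F1, an orphan nuclear receptor gene, were both lower on replicate 4, by 0.68 and 0.97 on the log2 scale. VIM-AS1 and the vimentin gene VIM were lower by 0.35 and 0.32, and NUCB1-AS1 and NUCB1 by 0.60 and 0.62. This description was chosen after the values had been seen and has no test. KCND3-AS1, antisense to a potassium channel gene, had the widest range, from 4.47 to 8.41, with I3P+SR1 arrays at 4.47, 7.63, 5.50 and 8.10 and no shared order over the groups. A range over 2 log2 units was found in 20 members (8.66%) and in 3.52% of all genes. Between the title letters, PRKG1-AS1 and ZMIZ1-AS1 were lower in SMI by 0.74 and 0.66.

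**Figure D5:**
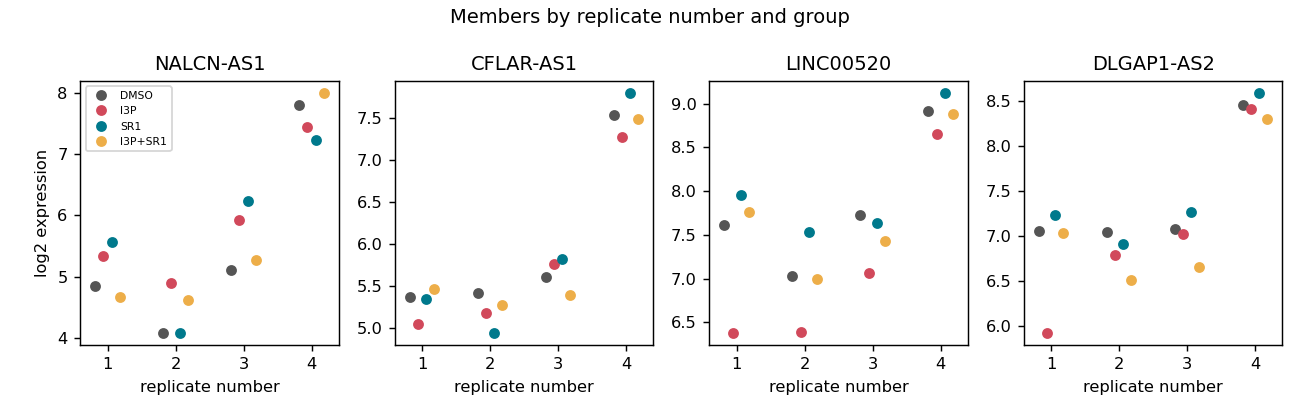
Log2 expression of NALCN-AS1, CFLAR-AS1, LINC00520 and DLGAP1-AS2 (vertical, separate scales) by replicate number (horizontal), with 1 point for each of the 4 groups. On replicate 4 the points of all 4 groups lie above every point of the other replicate numbers, for NALCN-AS1 at 7.24 to 8.0 against 4.08 to 6.23.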

How the data were processed

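RNA from 16 cultures of U-87MG was measured on single-colour Affymetrix arrays. The deposited values are log2 expression made by the authors with oligo and RMA, per the submitters' processing notes. RMA removes background, brings all arrays to 1 distribution and merges the probes of a row, and it compresses the differences of dim rows. No source used here gives versions, the annotation build or the filter that left 16510 rows. Raw intensities were not used, so signal over background is unknown.

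Of 16510 rows, 14096 had 1 symbol in the platform table, 795 had several and 1619 were not listed. For a symbol with several rows that with the highest mean was kept, which gave 14040 genes. Left out were 19 rows that pair a name of the member type with other symbols. Of the 231 members 176 had a current symbol in the RefSeq table (GRCh38.p14), 53 an older one and 2 were not found. Sense genes were matched by the text before -AS.

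limma 3.58.1 in R 4.3.3 was fitted to all genes with a mean per group over 16 arrays and no block. P is two-sided, and adjusted p is Benjamini-Hochberg over 14040 genes. The fit was also run on simulated data with independent noise. That run held no replicate effect and no outlying array, so it does not test the fit under those. Named members were those that passed, up to 6 with the smallest p in each comparison and from each list, the 6 with the largest SD or title difference, 4 pairs, and antisense partners of AHR genes. Members and lists were chosen with earlier results of these data known. For pairing, the deviations of arrays with the same number were correlated over genes. The correlations were 0.301 to 0.52 in SR1 against DMSO, 0.375 to 0.651 in I3P+SR1 against SR1 and 0.22 to 0.52 in I3P+SR1 against DMSO. The numbers were taken as pairs there, which the replicate block and the paired test use and the main fit does not. In I3P against DMSO the range was -0.066 to 0.506, and in I3P+SR1 against I3P it was -0.088 to 0.553. In these 2 comparisons the numbers were not taken as pairs, and differences on single replicate numbers are description only. The alternative fit with the replicate block covers all groups at once, these comparisons included. No 2 arrays were duplicates (smallest root mean square difference 0.258). Alternatives left out dim genes, single arrays or replicate numbers, used only the groups compared, or blocked the replicate number or title letters. 100 ng of total RNA was labelled, per the labels.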

Additional observations from a re-analysis of the deposited data

Results flagged for a closer look

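In 168 groups of 4 arrays from 42 named members, 9 had an array far from the other 3 by Dixon's test at 95%, where chance gives about 1 in 20. The 9 of 168 are close to that share. Some members were named for a large SD or title difference, CFLAR-AS1 and DLGAP1-AS2 among them. Which arrays are flagged is therefore not independent of the naming. Replicate 4 arrays made up 5 of the 9. CFLAR-AS1 read 7.54 on DMSO replicate 4 and 7.49 on I3P+SR1 replicate 4, while the other arrays of these groups read 5.37 to 5.61 and 5.27 to 5.46. DLGAP1-AS2 read 8.46 on DMSO replicate 4 against 7.05 to 7.08, and LINC00460 read 9.01 on I3P+SR1 replicate 4 against 8.48 to 8.56. FZD10-AS1 was low on DMSO replicate 4, at 6.51 against 7.54 to 7.69. Array I3P replicate 1 made up 3: SLC7A11-AS1 at 9.93 against 8.12 to 8.22, GNAS-AS1 at 8.97 against 8.61 to 8.64, and HOXD-AS2 at 7.92 against 7.16 to 7.27. HOXD-AS2 was also low on DMSO replicate 2, at 7.14 against 7.40 to 7.45.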

How the results depend on the processing

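ZNF295-AS1 was called in SR1 against DMSO and in I3P+SR1 against SR1 with any 1 of the 16 arrays left out (adjusted p 0.0048 to 0.047 and 0.0026 to 0.018), and with the replicate block (count 1 and adjusted p = 0.0058 and 0.0034 in the 2 comparisons), which changed no other member's call. The count of members called was 0 in both comparisons in a fit of only the 2 groups (adjusted p = 0.075 and 0.083), and when replicate 1, 2 or 3 was left out of all groups (adjusted p = 0.16, 0.30 and 0.13, and 0.061, 0.088 and 0.12), settings with fewer arrays. It was 0 with the dimmest 20% of genes left out, a filter that removes ZNF295-AS1 itself. It was 2 for SR1 against DMSO with the replicate block and without I3P replicate 1, through LINC00668. For I3P+SR1 against DMSO, ZNF295-AS1 turned from 0.11 to -0.24 within SLI and to -0.06 without replicate 4 of all groups, and the cause was not tested. SR1 against DMSO was -1.6 within SLI and -0.75 within SMI. The change of ZNF295-AS1 minus that of ZBTB21 for I3P+SR1 against SR1 passed over unpaired arrays and not over pairs by replicate number (1.1 in both), of which 4 cannot give an exact p under 0.125. The settings that leave out a replicate number from all groups, or join the block with leaving out I3P replicate 1, and the paired test were chosen after seeing the data. Signal over background is unknown and limits dim members.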
